A study of Bos taurus with 6 samples.

Results

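Integrin and laminin genes were taken as the genes of chromosomes 1 to 29 whose printed label begins with ITGA or ITGB, or reads LAMA, LAMB or LAMC followed by a digit. The files hold 902984 windows, and 25329 labelled genes lie on chromosomes 1 to 29 and X. The rule gave 1028 windows of 3 kb in 37 genes. Of these, 750 windows lay in 27 integrin genes and 278 windows in 10 laminin genes. The genes ITGB1BP and ITGB3BP encode proteins that bind integrins and are not integrins, and 43 windows of 3 such genes were left out. No window of chromosomes 1 to 29 carried the label LAMA4 or LAMB4, so these genes were not analysed here.

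Integrins are adhesion receptors of the cell surface, each made of an alpha and a beta chain, that tie the extracellular matrix to the actin cytoskeleton or to intermediate filaments. Laminins are large matrix proteins, each made of an alpha, a beta and a gamma chain, that form the sheet of the basement membrane and are ligands of several integrins. Dermal fibroblasts hold on to collagen and fibronectin through integrins, while the integrins of leukocytes serve contacts between blood cells and the vessel wall.

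Dermal fibroblasts of 3 Holstein heifers were cultured from biopsies taken at 5 and again at 16 months of age, and DNA of each culture was examined by MIRA-Seq. All cultures were at passage 5 and had no LPS, with 1 culture and 1 library per animal and age (n = 3 per age). The animals had been picked from a larger set of heifers for a middle response to LPS, and a culture is 1 sample of an animal's cells grown outside the body. The age of the animal and the time at which a culture was set up cannot be told apart. MIRA captures fragments of DNA on proteins with affinity for methylated CpG sites, so that the reads of a region rise with its methylation and with its number of CpG sites. Levels are given as RPKM, the reads of a window per kilobase of window and per M matched reads of the library, and a level does not give the methylated share of a site.

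Depth ranged from 19.9 to 43.6 M reads counted in windows per library. RNA was not measured in these libraries, so the cell type was looked at here only through marker genes. The study's RNA-Seq used other aliquots of these animals' cultures and was not part of the 6 libraries. The first windows of 10 fibroblast marker genes had a median of 0.0142 RPKM and none was above 0.5 RPKM. Medians were 0.169 for 7 keratinocyte, 0.0915 for 7 leukocyte and 0.139 RPKM for 5 endothelial marker genes. Over all labelled genes the median was 0.0501 RPKM. The lists overlapped gene by gene. Starts ran from 0.000815 to 0.0509 RPKM for fibroblast and from 0.0150 to 0.747 RPKM for keratinocyte markers. They ran from 0.00770 to 0.816 RPKM for leukocyte and from 0.0125 to 0.686 RPKM for endothelial markers. Over the 6 libraries the sums of these first windows ran from 0.133 to 0.280 RPKM for the fibroblast list, from 1.32 to 2.38 for the keratinocyte list, from 0.644 to 1.82 for the leukocyte list and from 0.882 to 2.05 for the endothelial list. The leukocyte list shares ITGAL and ITGB2 with the integrins, and its highest start, 0.816 RPKM, is that of ITGB2. Both libraries of animal 3 stood apart in windows of high signal. Among the 3903 genes whose body was above 0.5 RPKM, the level in animal 3 was a median of 0.525 times that of animals 1 and 2.

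The start of a gene was taken as its first labelled window on its strand, and its body as all other labelled windows. Across the 37 genes the start averaged 0.180 ± 0.0467 RPKM and the body 0.336 ± 0.0788 RPKM (SD, n = 6 libraries from 3 animals). The difference of start minus body was -0.193, -0.171 and -0.119 RPKM at 5 months in animals 1, 2 and 3, and -0.174, -0.168 and -0.113 RPKM at 16 months. It was below 0 in 6 of 6 libraries. It was lower at 5 than at 16 months within each of the 3 animals, by less than the spread between animals, and the values of both ages overlapped. The start was below the body in 29 of 37 genes (78.4%), against 67.2% of the 20815 labelled genes that have a body. Starts above 0.5 RPKM were found in 5 of the 37 genes, where the background over all labelled genes was 11.2%, and bodies above 0.5 RPKM in 7, where the background was 18.8%. The medians over all labelled genes were 0.0501 RPKM for starts and 0.0861 RPKM for bodies, and 19 and 27 of the 37 genes lay above them. These are descriptions of levels, and no test was made over the members.

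**Figure D1:**
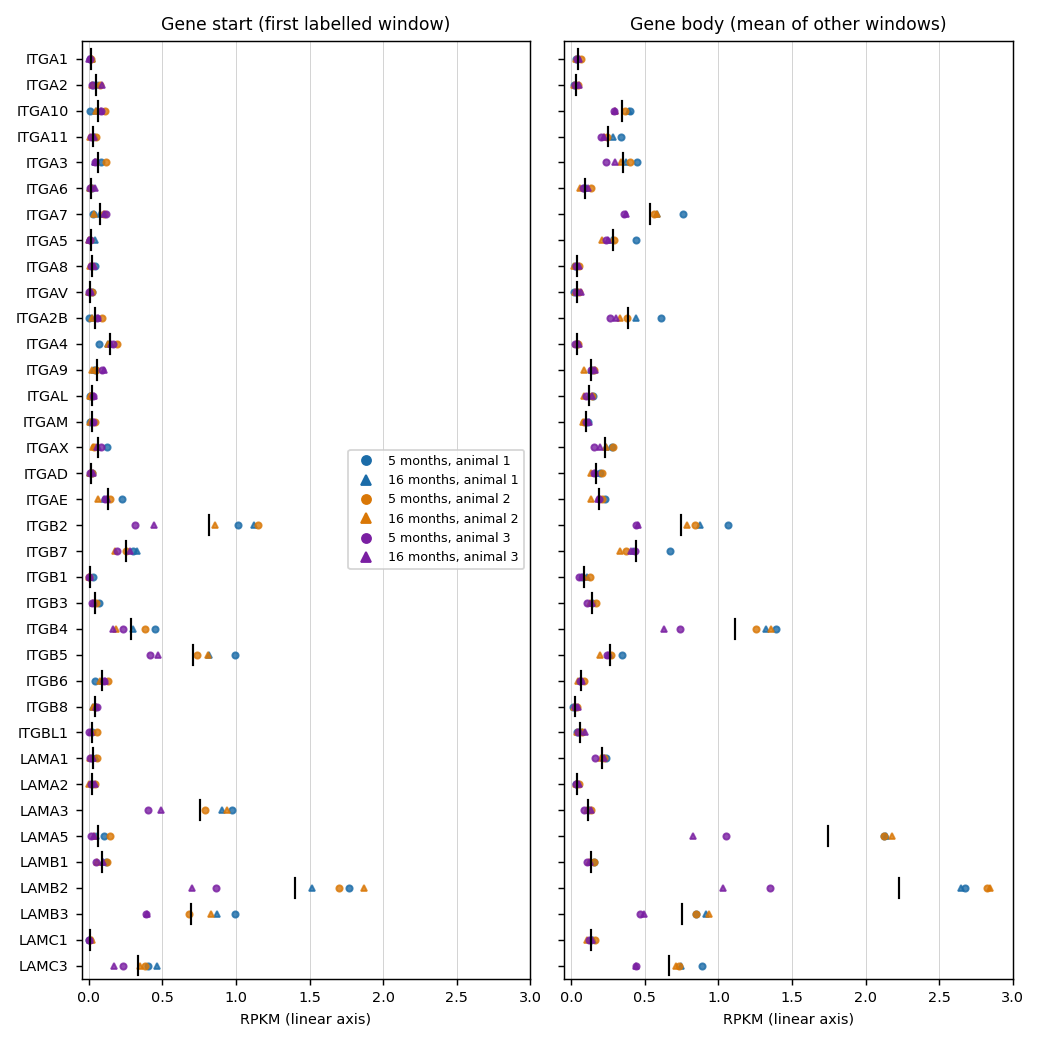
RPKM of the first labelled window (left) and mean RPKM of the other windows (right) for the integrin and laminin genes named or summarised here, on linear axes. Each point is 1 library, colours give the animal, circles are 5 months, triangles are 16 months and black bars are means over 6 libraries. Most genes lie close to 0 at their start, 5 starts have means above 0.5 RPKM, and LAMB2 and LAMA5 have the highest bodies.

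LAMB2, the beta chain of laminins at the neuromuscular junction and in the kidney filter, had the highest level in both positions. Its start had 1.76, 1.70 and 0.862 RPKM at 5 months in animals 1, 2 and 3 and 1.52, 1.87 and 0.698 RPKM at 16 months. Its body had 2.68, 2.82 and 1.35 RPKM at 5 months and 2.65, 2.84 and 1.03 RPKM at 16 months. Animal 3 was lowest at both ages in both positions, and the ages overlapped. The gene spans 5 windows, and within it the signal broke off in the middle window. That window, on chromosome 22 from 51461667 to 51464666, carries no coding exon in the labels and had 0.0801 ± 0.0263 RPKM (SD, n = 6), with 4 to 19 reads per library. The windows on either side, marked with coding exons 9 and 16, had 2.36 ± 0.784 and 3.34 ± 1.32 RPKM.

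LAMA5, the alpha chain found in the basement membranes of most adult tissues, had the next highest body and a start far below it. Its body had 2.12, 2.13 and 1.05 RPKM at 5 months in animals 1, 2 and 3 and 2.14, 2.18 and 0.829 RPKM at 16 months. Its start had 0.0634 ± 0.0483 RPKM (SD, n = 6), with 3 to 22 reads per library. The next window, 3 kb on, had 0.719 ± 0.318 RPKM. The highest window of any laminin or integrin gene was that on chromosome 13 from 55407797 to 55410796, marked with coding exon 15, with 3.58 ± 1.43 RPKM. The window before the last 10 windows of the gene, on chromosome 13 from 55401797 to 55404796, had no coding exon and 0.135 ± 0.0834 RPKM. The other body windows of LAMA5 without a coding exon, among them the window next to the start, had 0.253 to 0.795 RPKM.

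Among the integrins, ITGB4 had the highest body. It encodes the beta chain that pairs with the alpha chain ITGA6 in hemidesmosomes, where epithelial cells hold on to laminin. Its body had 1.39, 1.25 and 0.738 RPKM at 5 months in animals 1, 2 and 3 and 1.32, 1.35 and 0.632 RPKM at 16 months, against 0.284 ± 0.114 RPKM at its start. All 11 of its windows passed the filter of the comparison by age. Its highest window, on chromosome 19 from 56498075 to 56501074 at coding exon 8, had 1.82 ± 0.470 RPKM. ITGA6, its partner, was far below ITGB4 in both positions, with 0.0165 ± 0.0131 RPKM at the start and 0.0941 ± 0.0252 RPKM in the body.

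The other bodies of high level were those of LAMB3 with 0.750 ± 0.213, ITGB2 with 0.743 ± 0.249, LAMC3 with 0.661 ± 0.182, ITGA7 with 0.536 ± 0.151 and ITGB7 with 0.437 ± 0.120 RPKM (SD, n = 6). LAMB3 encodes a chain of the laminin that anchors the epidermis, ITGB2 the common beta chain of leukocyte integrins, LAMC3 a gamma chain of restricted tissues, ITGA7 the laminin receptor of muscle, and ITGB7 a beta chain of lymphocytes that home to the gut. Neighbours among these 5 levels differed by less than their SDs. Within libraries LAMC3 was above ITGA7 in each of the 6, while the order of the other neighbours changed between libraries. The highest windows of LAMC3, on chromosome 11 from 101312985 to 101315984, and of ITGA7, on chromosome 5 from 57879606 to 57882605, had 1.65 ± 0.578 and 1.47 ± 0.442 RPKM.

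**Figure D2:**
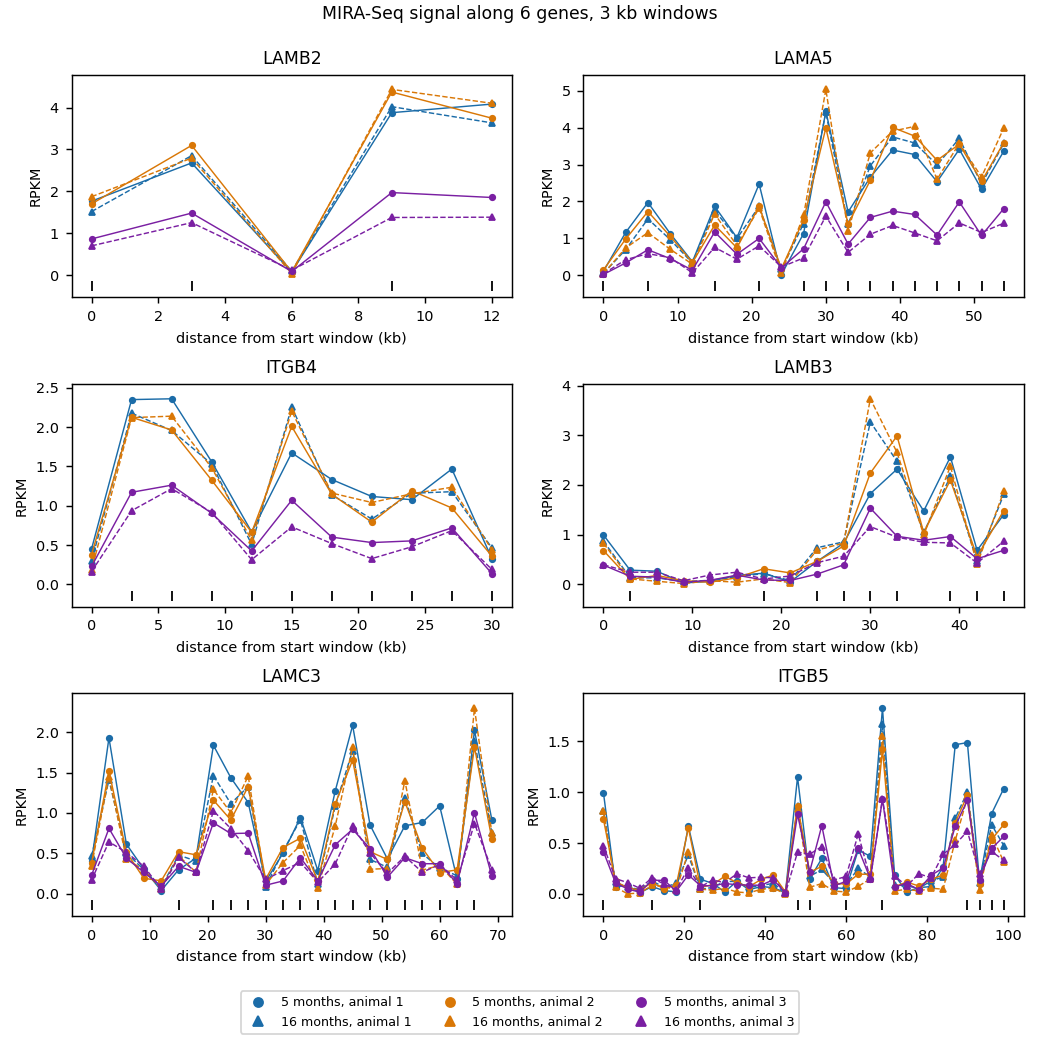
RPKM of each 3 kb window along 6 genes against the distance from the start window in kb. Solid lines and circles are 5-month cultures, dashed lines and triangles 16-month cultures, colours give the animal and ticks under the curves mark windows with a coding exon. The libraries of animal 3 lie lowest at the peaks of LAMB2, LAMA5 and ITGB4, where the other 4 libraries run close together, and the middle window of LAMB2 drops to 0.0801 RPKM.

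Bodies of low level belonged to genes of many windows. Among genes with at least 5 body windows the lowest were ITGB8 with 0.0265 ± 0.0119, ITGA2 with 0.0327 ± 0.0139, ITGA8 with 0.0354 ± 0.0146, LAMA2 with 0.0396 ± 0.0107 and ITGAV with 0.0405 ± 0.0175 RPKM (SD, n = 6). They are a receptor that activates TGF-beta, a collagen receptor, a receptor of kidney development, the laminin alpha chain of muscle, and the alpha chain that partners ITGB5 and ITGB8. Their SDs overlapped throughout. Across the 37 genes, body level and labelled length had a Spearman correlation of -0.64, and the 15 genes under 50 kb had a median body of 0.348 RPKM against 0.111 RPKM in the 22 genes of 50 kb or more. Body level also went with the share of windows that carry a coding exon (Spearman 0.52) and with the level of the start (Spearman 0.52). These correlations are across genes that share their libraries and whose base composition was not examined here.

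At the gene starts, 5 genes stood above 0.5 RPKM, namely LAMB2, ITGB2 with 0.816 ± 0.356, LAMA3 with 0.751 ± 0.244, ITGB5 with 0.707 ± 0.222 and LAMB3 with 0.694 ± 0.254 RPKM (SD, n = 6). LAMC3 followed with 0.332 ± 0.111 RPKM. The last 4 of the first 5 differed by less than their SDs. LAMA3 encodes the alpha chain that joins LAMB3 in the laminin under the epidermis. Its start had 0.975, 0.792 and 0.405 RPKM at 5 months in animals 1, 2 and 3 and 0.905, 0.940 and 0.493 RPKM at 16 months, while its body had 0.115 ± 0.0173 RPKM and was the lower of both in all 6 libraries. The first labelled windows of ITGB2 and LAMB3 are marked with no coding exon, so their distance from the promoter is not known. The same holds for the first labelled windows of ITGA3, ITGB1, ITGB4 and ITGB7.

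ITGB5, the beta chain that forms a vitronectin receptor with ITGAV, also had a start above its body. Its start had 0.995, 0.734 and 0.415 RPKM at 5 months and 0.817, 0.811 and 0.472 RPKM at 16 months in animals 1, 2 and 3, against 0.346, 0.270 and 0.246 and 0.260, 0.193 and 0.247 RPKM in its body. The start was above the body in each of the 6 libraries. Its upstream neighbour window, which carries no gene label, had a mean of 1.22 RPKM over the 6 libraries. Besides LAMA3 and ITGB5, genes with a start mean above their body mean included ITGB2, ITGA4, ITGB8, ITGA2 and ITGB6.

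The lowest starts were those of LAMC1 with 0.00692 ± 0.00688, ITGB1 with 0.00790 ± 0.0120, ITGAV with 0.00892 ± 0.0100, ITGA5 with 0.0119 ± 0.0164, ITGA1 with 0.0120 ± 0.00705 and ITGAD with 0.0161 ± 0.00740 RPKM (SD, n = 6). LAMC1 is the gamma chain of most laminins, ITGB1 the beta chain shared by most matrix receptors, ITGA5 its partner in the fibronectin receptor, ITGA1 a collagen receptor and ITGAD a leukocyte alpha chain. LAMC1 had 0 to 2 reads in its start window per library, ITGB1 0 to 3 and ITGA5 0 to 9. A count of 0 allows a level of up to 0.0147 to 0.0308 RPKM in a 3 kb window, depending on the library and for counting error only, so the order of these genes cannot be read from these depths. Their bodies differed more, with 0.284 ± 0.0825 RPKM in ITGA5, 0.134 ± 0.0194 in LAMC1 and 0.0853 ± 0.0266 RPKM in ITGB1.

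Across the 18 integrin alpha chains the median start was 0.0352 RPKM, against 0.0501 RPKM over all labelled genes. Of these 18 chains 0 had a start above 0.5 RPKM, where the background over all labelled genes was 11.2%. With so few genes the count does not set these chains apart from that share. Their starts ran from 0.00892 to 0.140 RPKM. By ligand group, the median body was 0.348 RPKM over the 3 laminin-binding alpha chains ITGA3, ITGA6 and ITGA7. It was 0.149 RPKM over the 4 collagen-binding alpha chains and 0.162 RPKM over the 4 alpha chains that bind RGD motifs. The 5 leukocyte alpha chains had a median of 0.170 RPKM. ITGA4 and ITGA9, grouped apart from these, had bodies of 0.0408 and 0.136 RPKM and starts of 0.140 and 0.0564 RPKM. The ranges overlapped, since the laminin-binding chains spanned 0.0941 to 0.536 RPKM and the collagen-binding chains 0.0327 to 0.342 RPKM. The beta chains of leukocytes, ITGB2 and ITGB7, had bodies of 0.743 and 0.437 RPKM, and the 6 other integrin beta chains had a median of 0.112 RPKM with a range from 0.0265 to 1.12. ITGBL1, a secreted protein that resembles the stalk of a beta chain and is no receptor subunit, had 0.0607 ± 0.0229 RPKM in its body.

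Laminin bodies were above integrin bodies on average, with 0.612 ± 0.183 against 0.234 ± 0.0455 RPKM (SD, n = 6). The difference was 0.431, 0.481 and 0.213 RPKM at 5 months in animals 1, 2 and 3 and 0.467, 0.511 and 0.165 RPKM at 16 months, and was above 0 in 6 of 6 libraries. LAMB2 and LAMA5 carried most of it. The medians over genes were 0.173 RPKM for laminins and 0.138 for integrins, and without LAMA5 and LAMB2 the laminin median was 0.134 RPKM. With medians over genes in each library the difference was 0.0298 ± 0.0156 RPKM.

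Body windows with and without a coding exon were compared within the 33 genes that have both. Windows with a coding exon averaged 0.394 ± 0.0979 RPKM over genes and the others 0.132 ± 0.0191 RPKM (SD, n = 6), and the former were higher in 6 of 6 libraries. They were higher in 24 of the 33 genes (72.7%), against 69.3% of 12099 genes in all, so that the share in integrins and laminins was near the background. In 21 genes the order held in all 6 libraries, and in 5 genes, ITGA1, ITGA2, ITGA4, ITGB1 and LAMA2, the opposite order held in all 6. The widest gap was in LAMB2, with 2.94 against 0.0801 RPKM, where 1 window stands for the others. In ITGA11, a collagen receptor of fibroblasts, the levels were 0.439 and 0.116 RPKM. The number of CpG sites per window was not available here, and its part in the difference was not tested.

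**Figure D3:**
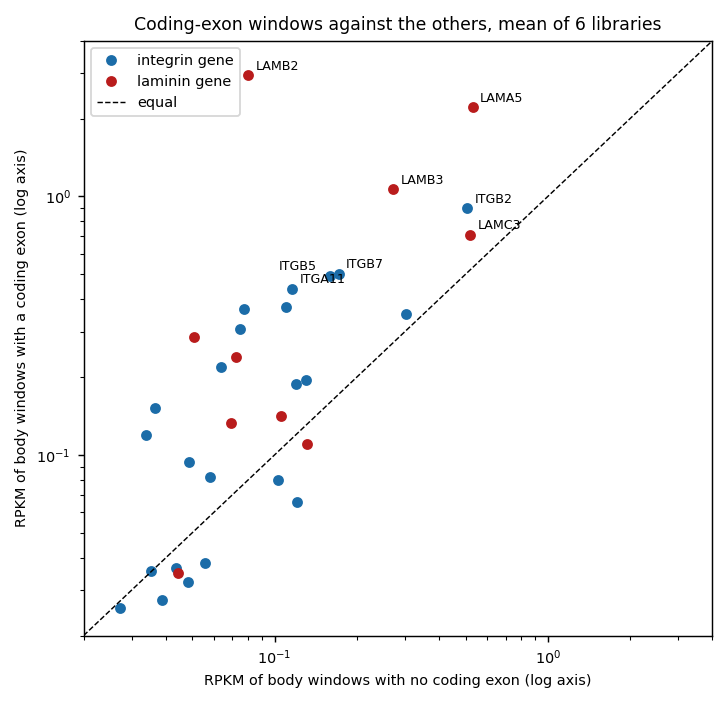
Mean RPKM over 6 libraries of body windows with a coding exon (vertical) against body windows without one (horizontal) for 33 genes, on log axes. Points above the dashed line, 24 of 33, have the higher level at coding exons, and genes above 0.4 RPKM at coding exons are named.

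Animal 3 differed from the other animals most in the genes of high signal. All 7 members with a body above 0.5 RPKM, LAMB2, LAMA5, ITGB4, LAMB3, ITGB2, LAMC3 and ITGA7, had both libraries of animal 3 below the other 4, and their levels in animal 3 were a median of 0.515 times those of animals 1 and 2. The same held for 91.5% of all genes above 0.5 RPKM. Over all 37 genes this was so in 10 genes, against 27.5% of all genes, and the opposite in 0 genes, against 5.29%. Counts summed over each gene, its start included, were also scaled by TMM factors, which set each library against its typical gene. On these counts the ratios of LAMB2, LAMA5 and ITGB4 were 0.544, 0.549 and 0.643. What sets these libraries apart was not tested.

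The comparison by age asks whether methylation of these genes differed between a heifer's 5-month and 16-month culture. Windows with at least 1 read per M counted reads (CPM) in at least 3 libraries were fitted with edgeR's quasi-likelihood test with the animal as a block. Calls needed a false discovery rate (FDR) below 0.1 together with a change of at least 2-fold in either direction. The filter kept 227 member windows (22.1%) in 33 genes, against 17.7% of labelled windows and 11.6% of all windows. ITGA2, ITGA8, ITGAV and ITGB8 had no tested window. Tested windows held a median of 62 reads per library and untested ones 6.

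None of the 227 windows was called, where 0.185% of the 104658 windows tested were called. At an unadjusted p under 0.05, edgeR's quasi-likelihood test gave 11 windows (4.85%), where the background was 7.10%, and of these 9 were higher at 5 months and 2 at 16 months. The likelihood-ratio test of edgeR called 0 windows, with 10 under 0.05, and DESeq2 called 0, with 6 under 0.05. With FDR below 0.1 alone, 1 window of ITGB5 passed, where the background was 0.325%. On TMM-scaled CPM the values did not overlap between ages in 9 windows that were higher at 5 months (3.96%), where the background was 2.43%. The same held for 5 windows higher at 16 months (2.20%), where the background was 2.85%. The log2 fold changes of 5 over 16 months ran from -1.09 to 0.99, and 152 windows (67.0%) were above 0, against 52.6% of all tested windows and 54.4% of tested windows with a gene label. Neighbouring windows of a gene are not independent.

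**Figure D4:**
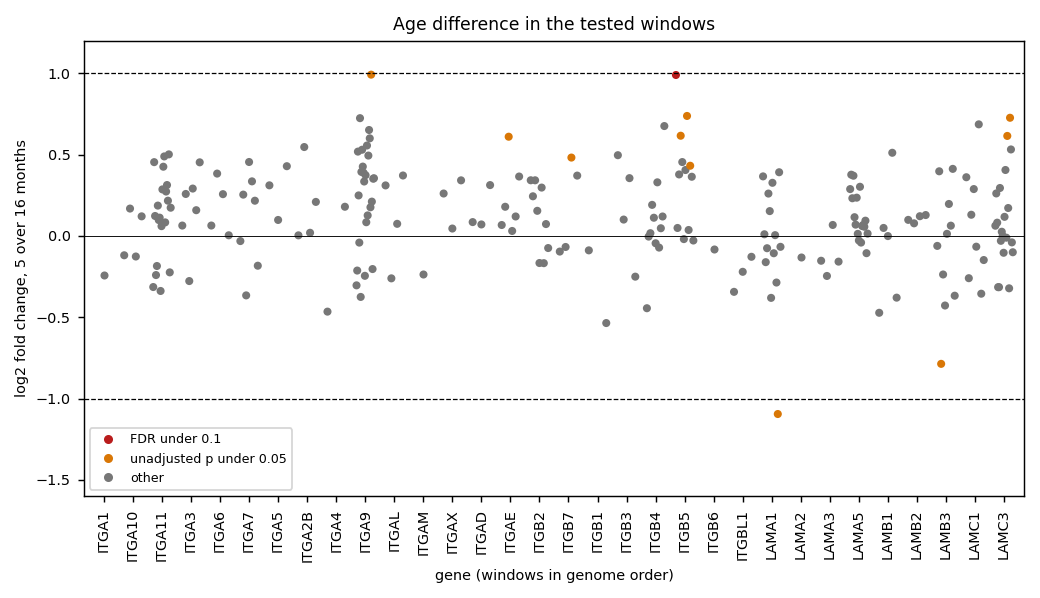
Log2 fold change of 5 over 16 months for the tested windows of the plotted genes, in genome order within a gene, with dashed lines at a fold change of 2 in either direction. The red point of ITGB5, at 0.99, is the only window with an FDR below 0.1, and the 11 windows with an unadjusted p under 0.05 are coloured.

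The ITGB5 window lay on chromosome 1 from 69800101 to 69803100, at the end of the gene on its minus strand, and is marked with coding exon 13. It had 4.64, 3.51 and 4.59 CPM at 5 months in animals 1, 2 and 3 and 2.32, 1.68 and 2.44 CPM at 16 months, from 101, 106 and 106 reads and 97, 34 and 48 reads. Every 5-month value was above every 16-month value. The log2 fold change was 0.99 ± 0.23 (SE, adjusted p = 0.0292 by edgeR's quasi-likelihood test), higher at 5 months in 3 of 3 animals, and lay just under the fold threshold. Over 11 alternative settings it ran from 0.97 to 1.04 and the adjusted p from 0.0224 to 1.00, with an FDR below 0.1 in 3 of them. The coverage at the deepest position of the window was 0.209 times its number of reads.

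ITGB5 held 4 of the 10 windows with the lowest p. The window from 69812101 to 69815100 had 6.57, 3.61 and 5.41 CPM at 5 months and 3.63, 2.82 and 3.61 CPM at 16 months in animals 1, 2 and 3. Each animal was higher at 5 months and the groups overlapped, and the log2 fold change was 0.62 ± 0.21 (SE, adjusted p = 0.319 by edgeR's quasi-likelihood test). The windows from 69845101 and from 69851101 had log2 fold changes of 0.74 and 0.43. Of the 12 tested windows of the gene, 10 were above 0 and the median log2 fold change was 0.39, while the start window stood at -0.03. Summed over the gene, the reads gave 0.29 ± 0.25 (SE, adjusted p = 1.00 by edgeR's quasi-likelihood test).

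Laminin windows among those of lowest p went both ways. A LAMB3 window on chromosome 16 from 75589181 to 75592180, at coding exon 5, had 2.07, 2.39 and 1.69 CPM at 5 months and 3.60, 3.72 and 3.25 CPM at 16 months in animals 1, 2 and 3. On this TMM-scaled CPM all 5-month values were below all 16-month values. The log2 fold change was -0.79 ± 0.24 (SE, adjusted p = 0.210 by edgeR's quasi-likelihood test). On RPKM the ages overlapped, with 0.463 RPKM in animal 2 at 5 months and 0.438 RPKM in animal 3 at 16 months. A LAMA1 window lay on chromosome 24 from 40446931 to 40449930. It had 0.644, 1.33 and 0.736 CPM at 5 months and 1.62, 2.13 and 1.88 CPM at 16 months, also without overlap on TMM-scaled CPM. LAMA1 is the alpha chain of the embryonic basement membrane, and the log2 fold change of its window was -1.09 ± 0.41 (SE, adjusted p = 0.417 by edgeR's quasi-likelihood test).

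LAMC3 windows on chromosome 11 were higher at 5 months. The window from 101303985 to 101306984 had 3.95, 2.92 and 3.03 CPM at 5 months and 2.43, 1.59 and 1.98 CPM at 16 months. These TMM-scaled values did not overlap, and the log2 fold change was 0.73 ± 0.25 (SE). On RPKM they overlapped, with 0.373 RPKM in animal 3 at 5 months and 0.499 RPKM in animal 1 at 16 months. In the window from 101294985 to 101297984 the ages overlapped and the log2 fold change was 0.61 ± 0.24 (SE). Of the 20 tested LAMC3 windows, 11 were above 0, so the gene did not lean to 1 age.

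Among the other integrins, the log2 fold change was 0.48 ± 0.21 (SE) in an ITGB7 window on chromosome 5 from 26968906 to 26971905, and 0.99 ± 0.45 (SE) in an ITGA9 window on chromosome 22 from 11176767 to 11179766. ITGA9, a receptor of tenascin and osteopontin, is the longest member with 121 windows. In its window the 5-month cultures of animals 1, 2 and 3 had 1.47, 1.39 and 2.08 CPM and the 16-month cultures 0.692, 0.694 and 1.12 CPM, from 14 to 48 reads, without overlap. The adjusted p was 0.598 by edgeR's quasi-likelihood test. Of its 26 tested windows 20 were above 0, with a median log2 fold change of 0.35. The 8 start windows that passed the filter, of ITGB4, LAMA3, LAMB2, ITGB2, LAMB3, ITGB7, LAMC3 and ITGB5, had log2 fold changes from -0.16 to 0.68, the last in ITGB4 with an unadjusted p of 0.0629 by edgeR's quasi-likelihood test.

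**Figure D5:**
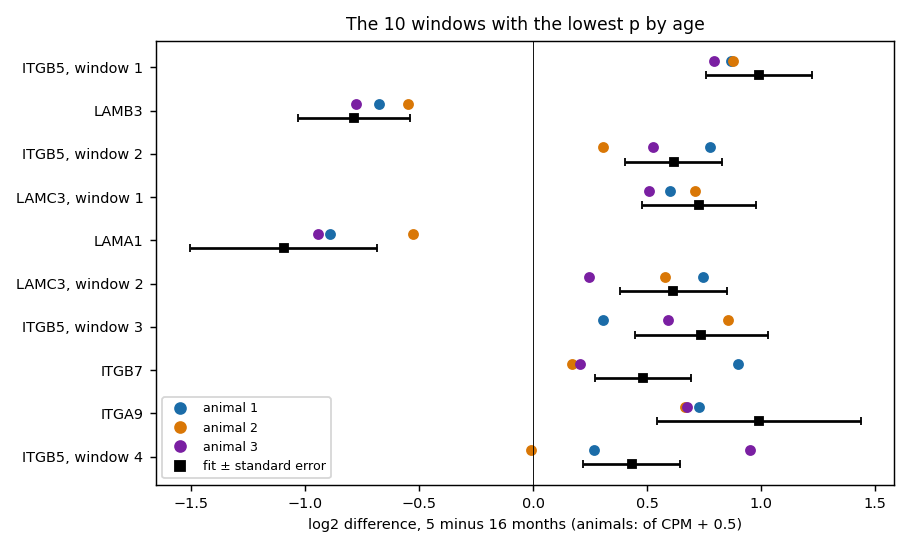
Log2 difference of 5 minus 16 months in the 10 windows of lowest p, ordered by p. Coloured points are the 3 animals on the scale of CPM + 0.5, and black squares are fitted log2 fold changes with their standard errors. All 3 animals lie on the same side of 0 in 9 of the windows, and in the last ITGB5 window animal 2 lies at -0.01.

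Leaving out animal 3 changed the count. Without it 2 of the 222 windows then tested were called, where the background was 1.24%. They were the ITGB5 window from 69800101, whose log2 fold change was 1.04, and an ITGAE window on chromosome 19 from 25029475 to 25032474, with 1.12 (adjusted p = 0.0638 by edgeR's quasi-likelihood test). With FDR below 0.1 alone a further window of LAMB3 passed, where the background was 3.19%. It lay on chromosome 16 from 75595181 to 75598180 and was higher at 16 months, at -0.86 without animal 3 (adjusted p = 0.00213 by edgeR's quasi-likelihood test) and -0.43 with all animals. Its differences on the scale of log2(CPM + 0.5) were -0.92 and -0.77 in animals 1 and 2 and 0.51 in animal 3. ITGAE is the alpha chain with which lymphocytes hold on to epithelial cells. With all animals the ITGAE window had a log2 fold change of 0.61 and an adjusted p of 0.702 by edgeR's quasi-likelihood test. On the scale of log2(CPM + 0.5), animals 1 and 2 had differences of 1.18 and 0.50 and animal 3 one of -0.32.

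Counts summed over each gene were fitted in the same way. In edgeR's quasi-likelihood test 0 of the 37 genes were called, where the background was 0.0111% of 17955 genes, and 0 were under an unadjusted p of 0.05, where the background was 0.602%. DESeq2 and the likelihood-ratio test also gave 0 at both thresholds. The lowest p was that of ITGA5, whose summed windows had 41.3, 25.1 and 30.1 CPM at 5 months and 24.4, 22.4 and 26.0 CPM at 16 months in animals 1, 2 and 3. Each animal was higher at 5 months and the groups overlapped, and the log2 fold change was 0.38 ± 0.29 (SE, adjusted p = 1.00 by edgeR's quasi-likelihood test). ITGAE with 0.33, ITGB7 with 0.30, ITGAD with 0.29 and ITGA9 with 0.26 were also above 0, and ITGBL1 with -0.28 and ITGAV with -0.31 below. Without animal 2 ITGBL1 stood at -0.74 (adjusted p = 0.0254) and ITGAV at -0.88 (adjusted p = 0.0404 by edgeR's quasi-likelihood test), both under the fold threshold, and these were 2 of 37 genes with an FDR below 0.1, where the background was 8.92%. Without animal 3 ITGBL1 stood at -0.07, and without animal 1 ITGAV stood at 0.035, ITGB7 at 0.032, ITGB5 at 0.12 and ITGA5 at 0.11.

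Of the 37 gene sums, 27 (73.0%) had log2 fold changes above 0, against 53.1% of all genes. By family this was 21 of 27 integrins and 6 of 10 laminins. Without animal 1, 20 of 37 were above 0 (54.1%), against 47.2% of all genes. The share was 67.6% without animal 2 and 73.0% without animal 3, against 52.4% and 54.7% of all genes. Among tested member windows it was 65.9%, 65.9% and 59.5% without animals 1, 2 and 3. The shares over all tested windows were then 55.9%, 52.6% and 52.5%. Animal 1 has the libraries of lowest and highest depth, and the part of depth was not tested. Without animal 2, 12 genes had an unadjusted p under 0.05 by edgeR's quasi-likelihood test, where the background was 24.8%.

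Partners of integrins and laminins were looked at in the same fit. Of 22 labelled adaptors that join integrins to the cytoskeleton, such as talins, kindlins, ILK and vinculin, 0 were called and 0 had an unadjusted p under 0.05 by edgeR's quasi-likelihood test, 18 were above 0, where the background was 53.1%, and the median log2 fold change was 0.08. Of 20 labelled partners in the basement membrane and matrix ligands, such as nidogens, perlecan, type IV collagens and fibronectin, 19 were tested, with 0 called, 0 under 0.05, 12 above 0 and a median of 0.04. Among their windows, 0 of 266 and 0 of 204 were called, with 27 (10.2%) and 18 (8.82%) at an unadjusted p under 0.05 by edgeR's quasi-likelihood test, where the background was 7.10%. The adaptors had a median body of 0.698 RPKM, above that of the integrins and laminins (0.138), and the matrix partners one of 0.181 RPKM.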

How the data were processed

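MIRA-Seq libraries of 6 fibroblast cultures were analysed. The authors aligned filtered reads to UMD 3.1 with NextGENe 2.3.4 and deposited read counts of 3 kb windows without normalization. The deposited highest coverage of a window, a signal not scaled to depth, was used only to look for stacks of reads. How PCR copies and multiply matching reads were treated was not given in the sources used here. Positions, gene labels and exon numbers are those of the files, which print 1 gene per window, so an overlapping gene can be hidden. Values of 1 gene are not reported here singly or plotted by name. No sequence was printed, since no genome of this build was used here.

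Members, lists and thresholds were chosen with earlier results of these data known. Counts were fitted with edgeR 4.0.16 (R 4.3.3), by the quasi-likelihood test with a block for the animal and TMM factors, over all windows or genes passing 1 CPM in 3 libraries. P-values were adjusted by Benjamini-Hochberg over all of them. CPM compared by age are TMM-scaled. Single-animal differences used a pseudocount of 0.5 CPM. The study's methods name the likelihood-ratio test, which was an alternative, as were DESeq2 1.42.0, other scalings and filters, no block and leaving out each animal. Standard errors are the log2 fold change over the root of F. Positive values are higher at 5 months. RPKM was taken over matched reads.

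The pairing comes from the animals. Deviations of the libraries of an animal from their age means correlated at 0.251, 0.496 and 0.708 over windows for animals 1, 2 and 3, and at 0.265, -0.161 and 0.759 over genes. The fit was tested on simulated data with known changes. Named by rule were called windows and genes, the 10 windows and 8 genes of lowest p, the 8 highest and 5 lowest bodies, the 6 highest and 6 lowest starts, and the highest window of each chain class. Figures were drawn with matplotlib 3.10.9.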

Additional observations from a re-analysis of the deposited data

How the results depend on the processing

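Start minus body, -0.156 RPKM, was negative under all alternatives, with -0.0985 for medians over genes, -0.0154 for means over windows, -0.0704 when the top 1% of windows by counts were dropped and -0.255 over counted reads. Without single animals it ran from -0.176 to -0.143. Laminin minus integrin bodies, 0.378 RPKM, stayed positive, with 0.0298, 0.202, 0.0603 and 0.616 in the same order and 0.319 to 0.473 without single animals. Called windows numbered 1 without the fold threshold, 0 to 2 without single animals and 0 under the other alternatives. Called genes numbered 0 under every alternative run. Without the replicate block 0 windows and 0 genes were called, with 5 windows and 0 genes at an unadjusted p under 0.05 by edgeR's quasi-likelihood test. The adjusted p of the ITGB5 window from 69800101 went from 0.0292 to 1.00 without the block, and of all windows tested 0 were called in place of 194. The log2 fold change of ITGAV, -0.31, was 0.035 without animal 1 and -0.88 without animal 2. Among the named genes, sums over windows changed in size with single animals, as in ITGBL1, from -0.74 without animal 2 to -0.07 without animal 3, while the sign turned in ITGAV alone. With 3 animals, 1 culture per animal and age and a median of 62 reads per tested window, depth and the number of animals limit what can be called, and a p that misses the threshold does not show that ages were alike. Counts are reads and not molecules, and intervals and floors cover counting error only.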
